A study of Mus musculus with 2 samples.

Results

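RNA levels of 71 genes for integrins and interstitial matrix were compared between mouse embryonic stem (ES) cells of 2 genotypes. The genes were chosen by their symbols among the 13620 genes of the deposited table. The choice took in integrin subunits, collagen chains other than Col4a1 and Col4a2, laminin chains other than Lama1, Lamb1 and Lamc1, and a set of named matrix genes such as Fn1, Tnc, Eln and the lysyl oxidases, and it used no measured value. The members were 16 integrin subunits, 27 collagen chains, 7 laminin chains, 19 other matrix genes, and Itgb1bp1 and Itgb3bp, which carry an integrin symbol but encode no subunit. A further 23 genes whose symbols fit the same description, among them Itga1, Itga2, Itga4, Itga8, Itgb8, Lamc3, Vtn and Lum, were not listed in the table and were not analysed here.

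Integrins are cell surface receptors built from an alpha and a beta subunit, and they bind cells to the extracellular matrix around them. The interstitial matrix is made of fibrillar and other collagens, elastic fibres and adhesive glycoproteins such as fibronectin, while laminins belong to the sheet-like basement membrane. Mouse ES cells attach through integrins of the beta 1 family, and primitive endoderm, the first epithelium that lies on a basement membrane in the embryo, secretes laminin and collagen IV in large amounts.

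Polyadenylated RNA had been sequenced from C57BL/6J ES cells, in 1 wild-type library and 1 library whose genotype is given as Fbxl10 T/T and which is called T/T from here on. The older name Fbxl10 stands for Kdm2b, the gene of a CpG island binding subunit of a Polycomb repressive complex, and the labels do not describe the T allele further. Both cultures were kept in serum with LIF on growth-arrested mouse embryonic fibroblasts, and the feeders were depleted by a plating step before the cells were used. The labels name no separate cultures or clones, and with 1 library of each genotype no difference between the genotypes was tested: "higher" and "lower" describe these libraries.

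Levels are normalised read counts (CPM), deposited by the authors, and whole reads were recovered from them. The listed levels sum to 887645 CPM in the wild-type and 1098136 CPM in the T/T library. The T/T sum is larger than scaling by library size alone can give, so a further scaling was applied. The sources used here do not describe it, and it enters every ratio of T/T to wild type. The wild-type library held 21198574 reads in the listed genes and the T/T library 27109446, of which the members took 169194 and 109621. Kdm2b was at 102.5 CPM in the wild-type and 10.6 CPM in the T/T library, 9.66-fold lower (8.50 to 11.0, a counting interval as defined below). The 13 ES cell markers were all below their wild-type level in T/T, and 10 of them at least 2-fold; Nanog, a pluripotency factor gene, was at 782.5 and 48.8 CPM. All 12 primitive endoderm markers were at least 2-fold higher, and Gata6, a primitive endoderm factor gene, was at 60.0 and 652.9 CPM. In such bulk libraries, fewer cells of a type and less RNA per cell cannot be told apart.

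Members were more often lower than higher in T/T. After 0.5 CPM was added to both levels, the log2 ratio of T/T to wild type was taken, and a gene was counted as lower or higher when this ratio passed 2-fold. Counts cover genes that reached 1 CPM in either library. Of the 70 members at that level, 25 were lower, 7 were higher and 38 lay in between, while the shares over all 13512 genes at that level were 20.6% lower, 14.8% higher and 64.7% in the 2-fold band. The median log2 ratio was -0.63 over the members and 0.02 over all genes. Lama2, at 22 and 21 reads, was the member below 1 CPM. Among the 57 members at 5 CPM or more, 22 were lower and 5 higher, beside 15.8% and 16.6% of the 10986 genes at that level. An exact two-sided binomial test of the recovered reads with Benjamini-Hochberg adjustment, which compares these 2 libraries and not the genotypes, called 44 members lower and 14 higher, beside 40.7% and 42.9% of all genes at 1 CPM or more. The summed level of the 71 members was 7085 CPM in the wild-type and 4440 CPM in the T/T library.

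The scale on which the libraries are compared moved these counts. Setting the libraries to a common median, upper quartile or column sum lowered every T/T value by 0.13, 0.24 or 0.31 on the log2 scale. With equal sums 32 members were lower and 5 higher, and over all genes 3405 were lower and 1317 higher in place of 2781 and 1994. Only Lox, Itgb3bp and Col1a1 changed direction among the members under these scalings. Near the 2-fold limit, Fbln2 (-1.20 on the log2 scale) and Col15a1 (1.13) just passed it, and Col6a3 (-0.98) and Itgb1 (0.90) fell just short of it. No gene of the table had both fewer than 22 wild-type reads and fewer than 28 T/T reads. Among the members 11 were under that number in 1 library, and 7 of these were lower and 2 higher. The 7 were Eln, Col9a2, Itgb7, Lama3, Lamb3, Col13a1 and Col17a1, and the 2 were Itgb2 and Itgb6. Each is in the table through the reads of the other library alone, so the listing itself favoured its direction. The same holds for genes named below that are no members, among them Itgal, Itgam, Krt14, Acan, Robo4 and Tie1. Of the other 60 members 18 were lower and 5 higher. The shares over all genes with at least 22 wild-type and 28 T/T reads were not counted, so these 2 counts have no like share beside them.

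**Figure D1:**
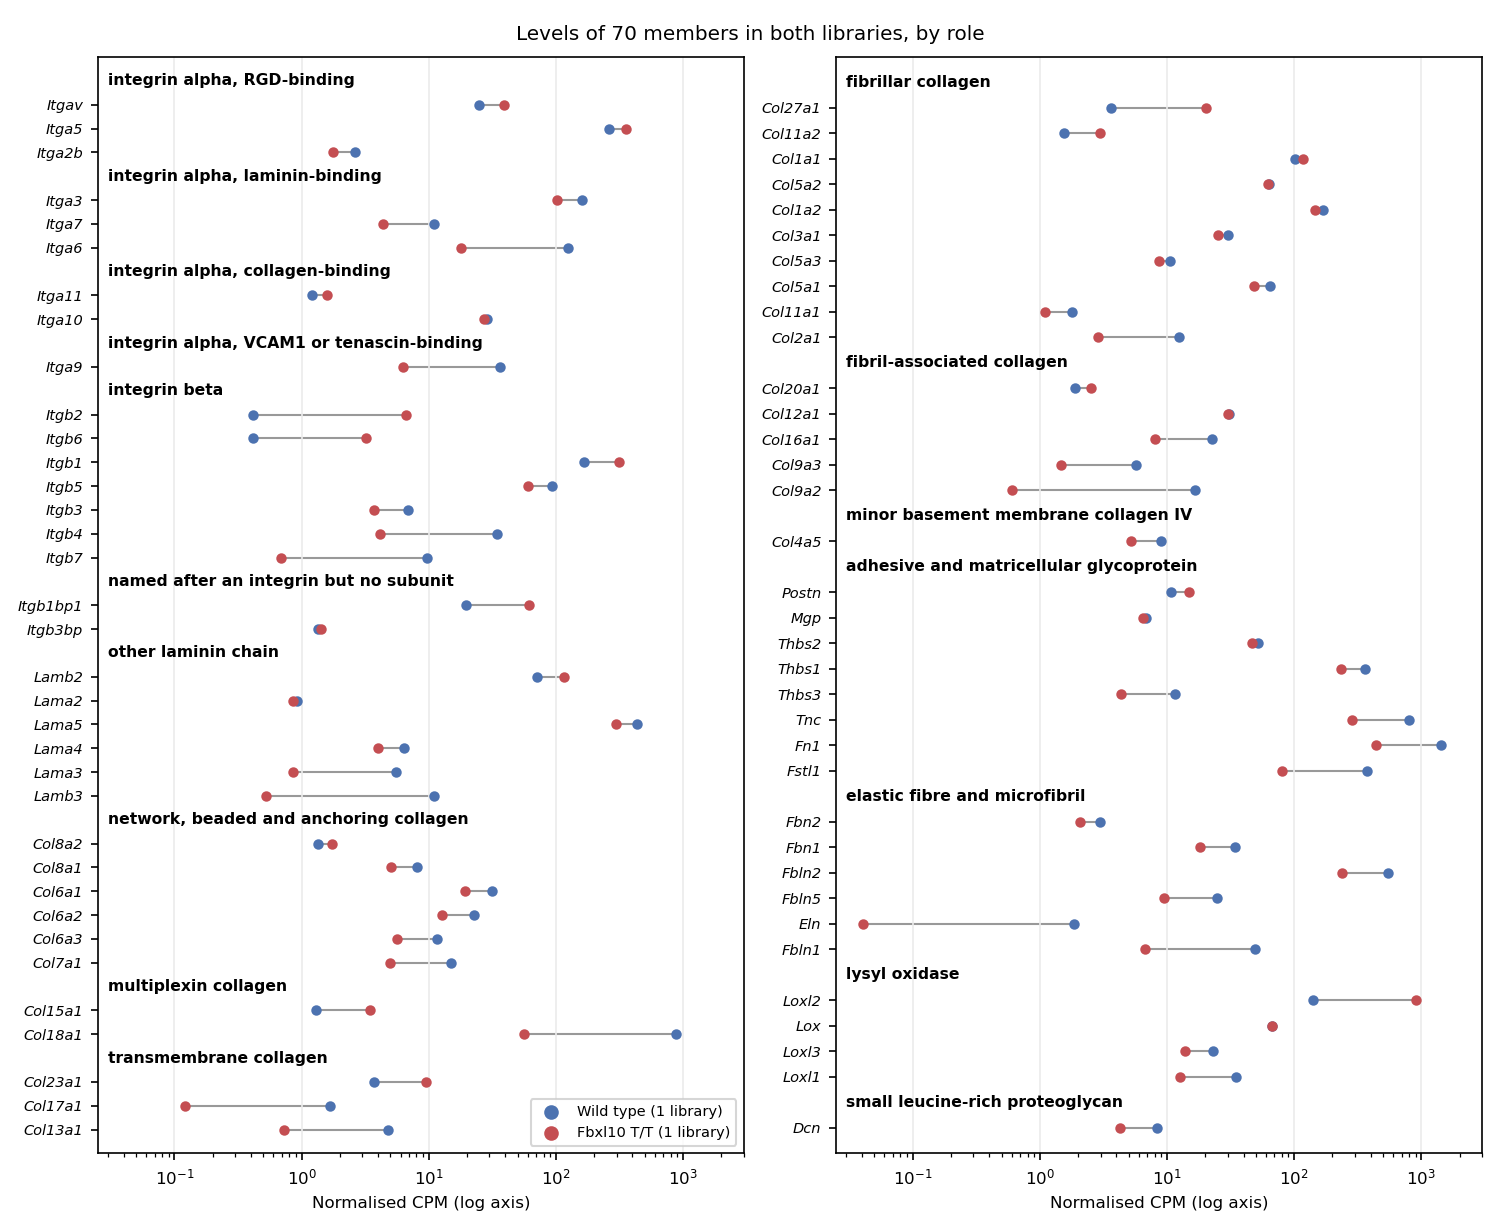
Levels of 70 members in the wild-type (blue) and T/T (red) library, in normalised CPM on a log axis, with a line joining the values of 1 gene; there is 1 library per genotype and no error bar. Most red points lie to the left of the blue ones, with Loxl2, Itgb2, Itgb6 and Col27a1 the widest exceptions.

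The start regions of a few members are printed because CpG-rich starts are the kind of sequence that the Kdm2b protein binds. Of the 71 members 48 matched an entry in the RefSeq promoter table (build GRCm38.p6), and the 250 bases before the first listed start were read for each. The 23 without an entry included Fn1, Itga6, Itgb2, Itgb4 and Loxl2. These windows held a median of 10.5 CpG dinucleotides over the members and 6 over the 27025 genes of the table, and 56.3% of members and 38.2% of all genes had 10 or more. The medians were 15 for the 5 members with an entry that were higher, 8 for the 15 that were lower and 11 for the 27 in between. The letters AGATAA or TGATAA, core forms of the site of GATA factors, were searched on both strands and occurred in 3 of the 48 member windows (6.25%) and in 17.0% of all windows. The median share of G and C was 58.8% in the member windows and 52% in all windows, and the motif shares were not adjusted for it. Shown are both listed starts of Col18a1, the member with the largest fall in CPM among the collagens, then Fstl1, Tnc and Lamb3, which were also lower, Itgb1, the main beta subunit gene, and Col27a1, which was higher. Each runs 5′ to 3′ on the gene's strand, with CpG dinucleotides in capitals.
Col18a1, first start: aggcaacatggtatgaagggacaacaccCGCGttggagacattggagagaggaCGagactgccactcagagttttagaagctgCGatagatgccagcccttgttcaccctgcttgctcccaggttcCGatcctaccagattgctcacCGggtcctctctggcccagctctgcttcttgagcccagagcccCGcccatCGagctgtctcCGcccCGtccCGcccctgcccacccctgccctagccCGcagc
Col18a1, second start: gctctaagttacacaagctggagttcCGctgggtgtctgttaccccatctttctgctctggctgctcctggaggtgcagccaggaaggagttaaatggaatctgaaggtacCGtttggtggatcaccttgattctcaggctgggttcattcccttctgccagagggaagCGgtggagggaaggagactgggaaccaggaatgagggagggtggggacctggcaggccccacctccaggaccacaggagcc
Fstl1: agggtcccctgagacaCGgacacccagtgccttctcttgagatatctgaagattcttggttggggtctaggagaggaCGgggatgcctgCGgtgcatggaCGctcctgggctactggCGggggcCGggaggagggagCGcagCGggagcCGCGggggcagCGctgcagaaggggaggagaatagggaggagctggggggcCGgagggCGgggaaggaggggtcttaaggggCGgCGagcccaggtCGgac
Tnc: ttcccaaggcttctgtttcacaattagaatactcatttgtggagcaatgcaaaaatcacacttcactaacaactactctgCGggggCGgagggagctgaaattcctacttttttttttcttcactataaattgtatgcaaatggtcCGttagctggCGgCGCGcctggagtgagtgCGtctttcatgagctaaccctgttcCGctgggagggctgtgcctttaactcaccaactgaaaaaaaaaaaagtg
Lamb3: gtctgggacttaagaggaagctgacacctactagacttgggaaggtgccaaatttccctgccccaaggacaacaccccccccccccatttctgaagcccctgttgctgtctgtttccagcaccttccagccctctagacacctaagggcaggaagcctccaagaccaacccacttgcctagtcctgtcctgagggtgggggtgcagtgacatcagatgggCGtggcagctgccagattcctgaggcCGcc
Itgb1: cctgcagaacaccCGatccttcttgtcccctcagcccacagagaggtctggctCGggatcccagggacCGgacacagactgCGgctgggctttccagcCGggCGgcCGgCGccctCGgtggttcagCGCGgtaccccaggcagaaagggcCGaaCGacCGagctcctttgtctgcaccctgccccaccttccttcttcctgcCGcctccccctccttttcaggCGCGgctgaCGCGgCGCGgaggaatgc
Col27a1: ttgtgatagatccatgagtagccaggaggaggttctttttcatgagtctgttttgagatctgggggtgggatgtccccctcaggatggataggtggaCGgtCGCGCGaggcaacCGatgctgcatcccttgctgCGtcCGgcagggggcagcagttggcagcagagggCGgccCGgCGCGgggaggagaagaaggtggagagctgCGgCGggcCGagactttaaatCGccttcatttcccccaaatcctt
The first Col18a1 window lies at chr10:77166531-77166780 on the minus strand and holds 12 CpG, and the second, at chr10:77113706-77113955, holds 3. The others lie at chr16:37776805-37777054 (Fstl1, plus strand, 16 CpG), chr4:64047016-64047265 (Tnc, minus strand, 8), chr1:193301744-193301993 (Lamb3, plus strand, 2), chr8:128685404-128685653 (Itgb1, plus strand, 21) and chr4:63215162-63215411 (Col27a1, plus strand, 15). Tnc and Lamb3 also have a second listed start, not printed here, with 10 and 3 CpG. Fstl1 and Itgb1, both with CpG-rich windows, lay on opposite sides of wild type, although Itgb1 did not pass 2-fold. A link of CpG number with direction was not tested. The deposited values are per gene, so the starts in use were not measured.

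Of the 16 integrin subunits 5 were lower, 2 higher and 9 in between, with a median log2 ratio of -0.54. Beside these shares of 31.25% lower and 12.5% higher stand 20.6% and 14.8% of all genes at 1 CPM or more. The main alpha subunits for RGD ligands were above wild type, and those for laminin below it. Itga5, whose product pairs with beta 1 as the classical fibronectin receptor, was at 259.5 CPM in the wild-type and 356.6 CPM in the T/T library, a ratio of 1.37 (95% counting interval 1.33 to 1.42). Itgav, the subunit of vitronectin receptors, was at 25 and 39.2 CPM, and Itga2b, the platelet subunit, at 2.64 and 1.78 CPM. None of these 3 passed 2-fold. Itga6, which pairs with beta 1 or beta 4 to bind laminin and marks many ES cell and epithelial cultures, was at 124.0 and 17.9 CPM. It was 6.94-fold lower (6.28 to 7.69) and lies on chromosome 2 from 71624997 to 71694828 in mm9. Itga7, the laminin receptor subunit of muscle, was 2.56-fold lower at 11.1 and 4.33 CPM, and Itga3 was at 159.4 and 102.7 CPM, a ratio of 0.64. All 3 laminin-binding subunits were thus below their wild-type level, 2 of them by more than 2-fold. Itga9, which binds tenascin C among other ligands, was 5.80-fold lower (4.88 to 6.93) at 36.2 and 6.24 CPM. The collagen-binding subunits Itga10 (28.7 and 27.4 CPM) and Itga11 (1.21 and 1.58 CPM) differed by less than 1.5-fold, and for both the counting interval included a ratio of 1.

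The beta subunits moved apart. Itgb1, the partner of most alpha subunits, was at 167.5 CPM in the wild-type and 312.2 CPM in the T/T library, a ratio of 1.86 (1.79 to 1.94) that did not pass 2-fold. Itgb5, a partner of alpha v, was at 93.4 and 60.2 CPM, and Itgb3, a partner of alpha v and alpha IIb, at 6.87 and 3.73 CPM. Itgb3 passed 2-fold with a common upper quartile (-1.01 on the log2 scale) or equal sums (-1.07). Itgb4, the hemidesmosomal subunit that pairs with alpha 6, was 8.30-fold lower (6.75 to 10.3) at 34.3 and 4.13 CPM. Itgb7, a subunit of lymphocyte homing receptors, was 14.2-fold lower (8.66 to 24.7) at 9.76 and 0.689 CPM. In the other direction, Itgb2, the beta subunit of leukocyte integrins, was 15.9-fold higher (8.41 to 33.7) at 0.419 and 6.64 CPM, from 10 and 164 reads. Its alpha partners Itgal (5.11 and 0.689 CPM) and Itgam (1.55 and 0.203 CPM), looked up after the value of Itgb2 was seen, were lower. Itgb6, an epithelial partner of alpha v, was at 0.419 and 3.2 CPM, 7.64-fold higher (3.94 to 16.6), and was likewise rare in wild type with 10 reads. Itgb2 and Itgb6 are in the table through their T/T reads alone, and Itgb7 through its wild-type reads alone. Of the genes that only share the name, Itgb1bp1, whose product binds the beta 1 tail, was 3.08-fold higher at 19.8 and 61.1 CPM. Itgb3bp, a centromere protein gene, was at 1.34 and 1.42 CPM.

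Relative to gene length, Itga5 and Itgb1 took larger shares in T/T. With levels divided by the exon length of GENCODE M21, which may differ from the annotation the authors used, Itga5 made up 46.3% of the listed alpha subunits in wild type and 67.2% in T/T. Itga3 was next, with 24.6% and 16.7%, and Itga6 went from 12.1% to 1.84%. The order of the leading subunits was Itga5, Itga3, Itga6, Itga10 in wild type and Itga5, Itga3, Itga10, Itgav in T/T. Itgb1 made up 53.2% and 78.4% of the listed beta subunits, and Itgb5 34.1% and 17.4%. The sum over alpha subunits was 113.6 CPM per kb in wild type and 107.6 in T/T, and that over beta subunits 77.1 and 97.5. These shares have no replicate error.

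**Figure D2:**
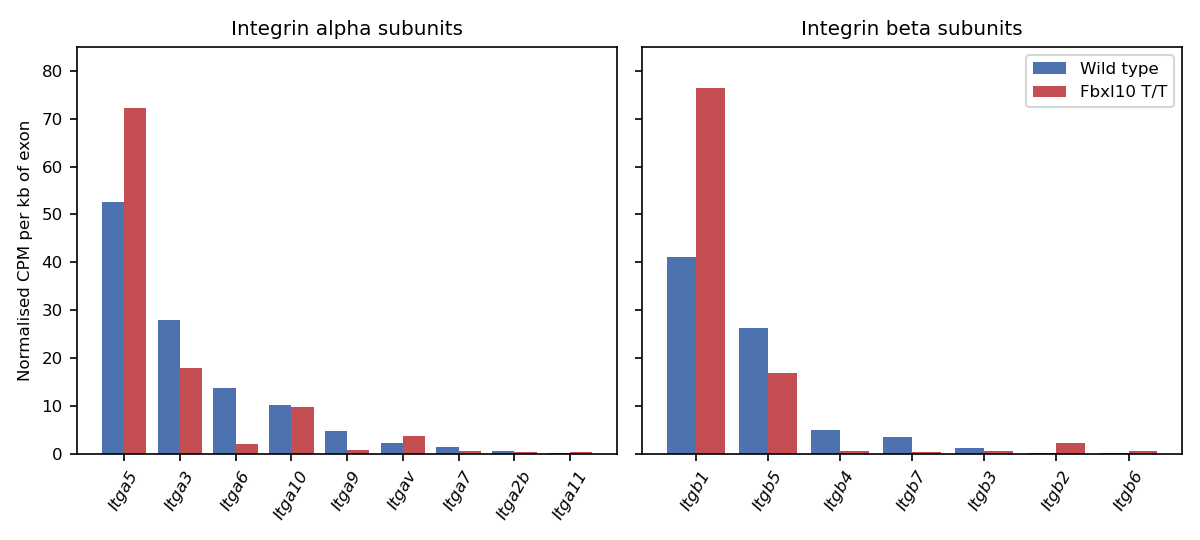
Levels of the listed integrin alpha (left) and beta (right) subunits in normalised CPM per kb of exon, in wild type (blue) and T/T (red), 1 library each, on axes that start at 0. Itga5 and Itgb1 were the tallest bars in both libraries and taller in T/T, whereas Itga6, Itga9 and Itgb4 shrank.

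Laminin chains outside the main embryonic trimer divided into lower ones and ones that did not pass 2-fold. A laminin is a trimer of an alpha, a beta and a gamma chain. Lama3, an alpha chain of epithelia with hemidesmosomes, was at 5.57 and 0.851 CPM, 6.55-fold lower (4.11 to 10.9). Lamb3, a beta chain of the same epithelia, was at 11.0 and 0.527 CPM, 20.9-fold lower (12 to 39.8). Lama5, the alpha chain of many adult basement membranes, was at 436.8 and 295.7 CPM, and Lama4 at 6.45 and 4.01 CPM. Lamb2 was above wild type, at 71.1 and 114.9 CPM, a ratio of 1.62 (1.52 to 1.72). Of the excluded partners, Lama1 was at 823.3 and 10036 CPM, Lamb1, listed as Lamb1-1, at 786.8 and 7808 CPM and Lamc1 at 1634 and 10646 CPM. Per exon length and with these partners counted in, Lama5 went from 30.8% of the listed alpha chains in wild type to 2.44% in T/T, and Lamb2 from 12.6% to 2.34% of the beta chains.

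The members Itga6, Itgb4 and Col17a1 belong to the hemidesmosome, the anchor of epithelia to the basement membrane, and Lama3, Lamb3 and Col7a1 to the matrix attached to it. They were put together after their values were seen to be lower, so their shared direction is a description and not a result. Their summed level was 191.7 CPM in the wild-type and 28.5 CPM in the T/T library. Lama3, Lamb3 and Col17a1 are in the table through their wild-type reads alone, since each had fewer than 28 T/T reads. Col17a1, a transmembrane collagen of the hemidesmosome, had 40 and 3 reads, a ratio of 0.073 with a counting interval from 0.014 to 0.228. Col7a1, the anchoring fibril collagen, was at 15.1 and 4.98 CPM, 3.03-fold lower (2.46 to 3.74). Other hemidesmosome genes, also looked up afterwards, were higher, in between or lower. Cd151, a tetraspanin gene, was 2.42-fold higher at 147.2 and 356.2 CPM, Dst, a plakin gene, was at 60.8 and 76.7 CPM, and Krt14, a basal keratin gene, was at 1.59 and 0.446 CPM. Plec and Krt5 were looked up as well and were not found under these symbols.

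Of the 27 collagen chains 8 were lower, 3 higher and 16 in between, with a median log2 ratio of -0.53. These shares of 29.6% lower and 11.1% higher stand beside 20.6% and 14.8% of all genes at 1 CPM or more. The fibrillar collagens of ordinary connective tissue were near their wild-type levels. Col1a1 and Col1a2, the chains of type I collagen, were at 101.6 and 167.5 CPM in wild type and 117.3 and 145.2 CPM in T/T. The direction of Col1a1 turned when the libraries were set to a common upper quartile or column sum. Col3a1 was at 30.1 and 25 CPM, and the type V chains Col5a1, Col5a2 and Col5a3 had ratios of 0.74, 0.98 and 0.81. The beaded type VI chains lay somewhat lower: Col6a1 was at 31.3 and 19.3 CPM, Col6a2 at 22.6 and 12.7 CPM and Col6a3 at 11.6 and 5.63 CPM. None of these 9 genes, a set named after the values were seen, passed 2-fold on the scale with 0.5 CPM added, although the plain CPM ratio of Col6a3 was 0.49. Col6a3 passed it under all 3 rescalings (-1.10 to -1.26 on the log2 scale) and with 0.1 CPM added (-1.02), and Col6a2 with a common upper quartile (-1.04) or equal sums (-1.10). Within the 10 listed fibrillar chains, Col27a1 was the exception above, 5.54-fold higher (4.40 to 7.04) at 3.64 and 20.2 CPM. Col2a1, the cartilage collagen, was the exception below, 4.32-fold lower (3.33 to 5.68) at 12.4 and 2.88 CPM. Col11a1 was at 1.80 and 1.09 CPM, and Col11a2 was at 1.55 CPM in wild type with a ratio of 1.93.

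Fibroblast markers, which feeder cells would carry, were below wild type in most cases. Of 27 markers that are no members 20 were listed, and 6 of these were lower, 14 in between and none higher, with a median log2 ratio of -0.85. That is 30% lower, beside 20.6% of all genes at 1 CPM or more. The summed level of the 20 markers was 1436 CPM in the wild-type and 915.6 CPM in the T/T library. Single markers ranged from 1.47 to 443.1 and from 0.608 to 313.9 CPM. Among the 6 lower ones, Twist1 was 6.85-fold lower at 28.6 and 4.17 CPM and Pcolce 4.92-fold lower at 147.8 and 30.1 CPM. Among those in between, Thy1 was at 52.0 and 28 CPM, Pdgfrb at 13.7 and 9.72 CPM and Acta2 at 213.9 and 221.6 CPM. No listed marker was at 0 reads, and Fap, Islr, Dpt, Ogn, Aspn, Fmod and Tcf21 were not listed. Of the listed markers, 4 also stand in the matrix or receptor lists used below. Markers of primitive endoderm moved the other way, from a sum of 1032 to 8132 CPM. Of 9 endothelial markers 7 were listed, 3 higher and 3 lower, with Cdh5 at 3.94 and 44.2 CPM, Esam at 7.96 and 120.3 CPM, Robo4 at 11.1 and 0.122 CPM and Tie1 at 2.30 and 0.446 CPM. The part of feeder, endoderm or endothelial RNA in the members' differences was not tested.

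**Figure D3:**
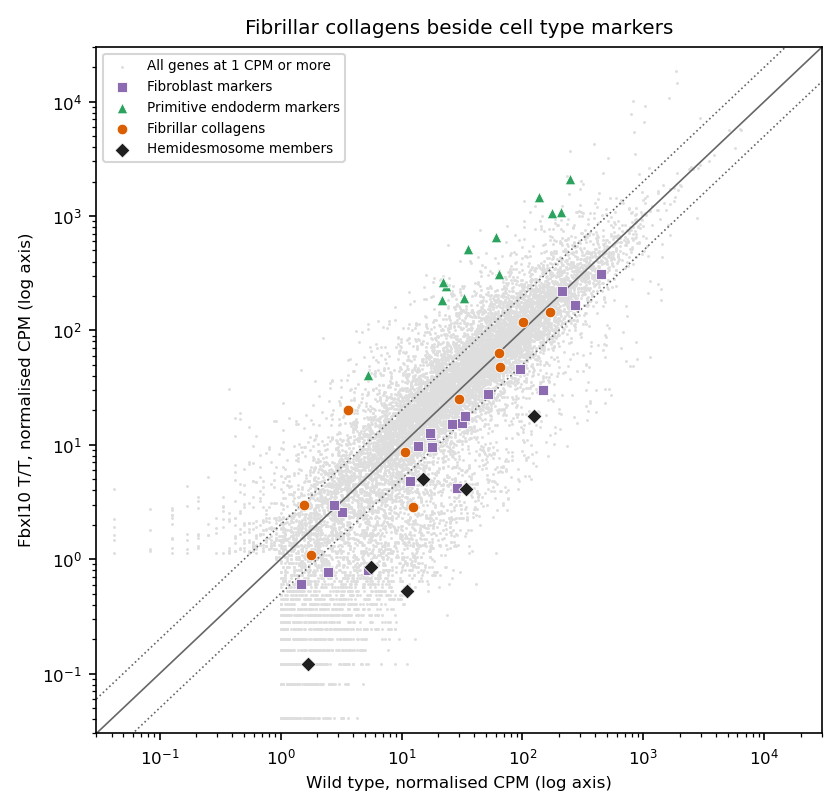
Level in T/T against wild type, normalised CPM on log axes, for the fibrillar collagens (orange), members of the hemidesmosome and the matrix attached to it (black), fibroblast markers (purple), primitive endoderm markers (green) and all genes at 1 CPM or more and above 0 in both libraries (grey); the solid line marks equality and the dotted lines 2-fold. Of the 10 orange points 8 lie between the dotted lines on the scale with the pseudocount, and all 12 green points lie above them.

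Among the other collagens Col18a1 dominated the sum. Col18a1, a basement membrane collagen whose end fragment is endostatin, was at 878.3 CPM in the wild-type and 56.6 CPM in the T/T library. It was 15.5-fold lower (14.7 to 16.4) and kept 6.45% of its wild-type level. The gene, whose start windows are printed above, lies on chromosome 10 from 76514926 to 76629246 in mm9. Collagen members together summed to 1524 and 601.9 CPM, so the difference of Col18a1 made up most of that of the sum. Its multiplexin relative Col15a1 was 2.65-fold higher (1.74 to 4.14) at 1.30 and 3.44 CPM. The fibril-associated chains of cartilage were lower: Col9a2 was at 16.6 and 0.608 CPM, 27.4-fold lower (16.4 to 49.3), and Col9a3 at 5.74 and 1.46 CPM. Col16a1 was 2.81-fold lower at 22.4 and 7.98 CPM, while Col12a1 was at 31.0 and 30.2 CPM. The transmembrane collagens divided, with Col13a1 6.55-fold lower (3.96 to 11.4) at 4.77 and 0.729 CPM and Col23a1 2.56-fold higher (2.00 to 3.31) at 3.68 and 9.44 CPM. Col9a2 and Col13a1 are in the table through their wild-type reads alone, since each had fewer than 28 T/T reads. With equal sums the log2 ratios of Col23a1 (0.96) and Col15a1 (0.87) no longer passed 2-fold, nor did that of Col15a1 with a common upper quartile (0.93) or with 1 CPM added (0.95). Col20a1 (1.88 and 2.51 CPM) and the network chains Col8a1 (8.12 and 5.02 CPM) and Col8a2 (1.34 and 1.74 CPM) did not pass 2-fold. Col4a5, the listed minor collagen IV chain, was at 9.003 and 5.23 CPM, and its log2 ratio passed 2-fold only with equal sums (-1.01). The excluded Col4a1 was at 1862 and 18445 CPM.

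Of the 19 other matrix members 9 were lower, 1 higher and 9 in between, with a median log2 ratio of -0.91. Their shares were 47.4% lower and 5.26% higher, beside 20.6% and 14.8% of all genes at 1 CPM or more. Adhesive and matricellular glycoproteins included Fn1, the most abundant member in wild type, and lay below wild type in 7 of 8 cases, 4 of them by more than 2-fold. Fn1, the fibronectin gene, was at 1418 CPM in the wild-type and 437.1 CPM in the T/T library, 3.24-fold lower (3.18 to 3.32). Tnc, the tenascin C gene, was 2.82-fold lower (2.74 to 2.90) at 798.4 and 283.4 CPM. Fstl1, a secreted BMP-binding glycoprotein gene, was 4.68-fold lower (4.45 to 4.91) at 372.0 and 79.5 CPM. So Fn1 and Itga5, a subunit of a fibronectin receptor, lay on opposite sides of wild type, and Tnc and Itga9, a subunit that binds tenascin C, were both lower. Other pairs of ligand and receptor were not compared, and no link within a pair was tested. Among the thrombospondin genes Thbs1 was at 359.1 and 234.3 CPM, Thbs2 at 52.4 and 46.9 CPM and Thbs3, the rarest, 2.62-fold lower at 11.5 and 4.37 CPM. Postn, the periostin gene, was the gene above wild type, at 10.8 and 14.9 CPM, and Mgp, a calcification inhibitor gene, was at 6.78 and 6.48 CPM. The small leucine-rich proteoglycan gene Dcn was at 8.42 and 4.25 CPM, and passed 2-fold only under the 3 rescalings (-1.03 to -1.18 on the log2 scale).

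Elastic fibre genes were below wild type in all 6 cases, 4 of them by more than 2-fold. Over all genes at 1 CPM or more, 20.6% were lower. Fbln1, whose product binds fibronectin and elastic fibres, was 7.30-fold lower (6.20 to 8.64) at 49.1 and 6.72 CPM. Fbln2 was at 545.6 and 237.3 CPM, 2.30-fold lower, and Fbln5, which is needed for elastic fibre assembly, was at 24.6 and 9.52 CPM. The table's locus of Fbln5 overlaps that of Tc2n, and the strand setting is not given in the sources used here, so its reads could be shared. Eln, the elastin gene, had 44 reads in the wild-type and 1 in the T/T library, a ratio of 0.022 with a counting interval from 0.00054 to 0.129. It is in the table through its wild-type reads alone. The fibrillin genes Fbn1 (34.3 and 18.1 CPM) and Fbn2 (2.97 and 2.07 CPM) did not pass 2-fold, and the interval of Fbn2 included a ratio of 1. Fbn1 passed 2-fold under all 3 rescalings (-1.03 to -1.20 on the log2 scale).

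The 4 members among the lysyl oxidases, enzymes that cross-link collagen and elastin, did not move alike. Loxl2, which also acts on collagen IV, was at 140.1 CPM in the wild-type and 908.9 CPM in the T/T library. It was 6.49-fold higher (6.26 to 6.73), the largest gain in CPM among the members, and lies on chromosome 14 from 70008975 to 70093527 in mm9. Lox was at 66.5 and 66.8 CPM, in a direction that turned when the libraries were rescaled. Loxl1, the enzyme of elastic fibres, was 2.77-fold lower (2.43 to 3.16) at 35 and 12.6 CPM, and Loxl3 was at 22.9 and 13.9 CPM, past 2-fold only with equal sums (-1.003 on the log2 scale). Loxl4, a relative that is no member, was 3.74-fold lower at 6.36 and 1.70 CPM. The locus of Loxl3 overlaps that of Htra2, those of Col9a3 and Col20a1 also overlap another listed gene, and sharing of reads was not tested.

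Genes that act with the members were described by list, and no difference between lists was tested. Of 31 listed genes of the integrin adhesion complex, which links integrins to actin, 7 were lower, 3 higher and 21 in between, with a median log2 ratio of 0.00, whose sign depends on the scaling, and these shares of 22.6% lower and 9.68% higher stand beside 20.6% and 14.8% of all genes. Nedd9, an adhesion docking protein gene, was 5.95-fold higher at 6.83 and 40.6 CPM, and Parva, the alpha-parvin gene, 3.22-fold higher at 63.3 and 203.7 CPM. Kank1, a gene of a talin-binding scaffold, was 6.91-fold lower at 12.6 and 1.82 CPM. The core genes Tln1 (417.1 and 289.3 CPM) and Vcl (120.3 and 118.8 CPM) lay in between. The median over 10 listed non-integrin matrix receptors was -1.11, and 6 of them were lower, 1 was higher and 3 lay in between. That is 60% lower and 10% higher, beside the same shares of all genes, 20.6% and 14.8%. Bcam, a laminin alpha 5 receptor gene, was 8.35-fold lower at 484.2 and 58.0 CPM, Ddr1, a collagen receptor gene, 5.09-fold lower, and Sdc4, a syndecan gene, 2.04-fold higher. Dag1, the gene of the laminin receptor dystroglycan, was 2.31-fold lower at 326.7 and 141.3 CPM.

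Of 31 other interstitial matrix genes at 1 CPM or more, 15 were lower, 4 higher and 12 in between, with a median of -0.99. The shares were 48.4% lower and 12.9% higher, beside 20.6% and 14.8% of all genes. The summed level of this list was nonetheless 1512 CPM in the wild-type and 1594 CPM in the T/T library. Ltbp4, a latent TGF-beta binding protein gene, was at 489.7 and 74.3 CPM, and the proteoglycan gene Acan was at 9.80 and 0.486 CPM. Spock1, a testican gene, was 9.34-fold higher at 9.42 and 88.0 CPM, and Spp1, the osteopontin gene, 3.18-fold higher at 264.6 and 842.1 CPM. Of 10 main basement membrane genes 8 were higher, none lower and 2 in between, with a median of 2.83. That is 80% higher, beside 14.8% of all genes. Nid2, a nidogen gene, was at 300.1 and 1723 CPM, whereas Agrn was at 362.4 and 353.5 CPM. These lists were written with earlier results of the data known, so their directions are descriptions.

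**Figure D4:**
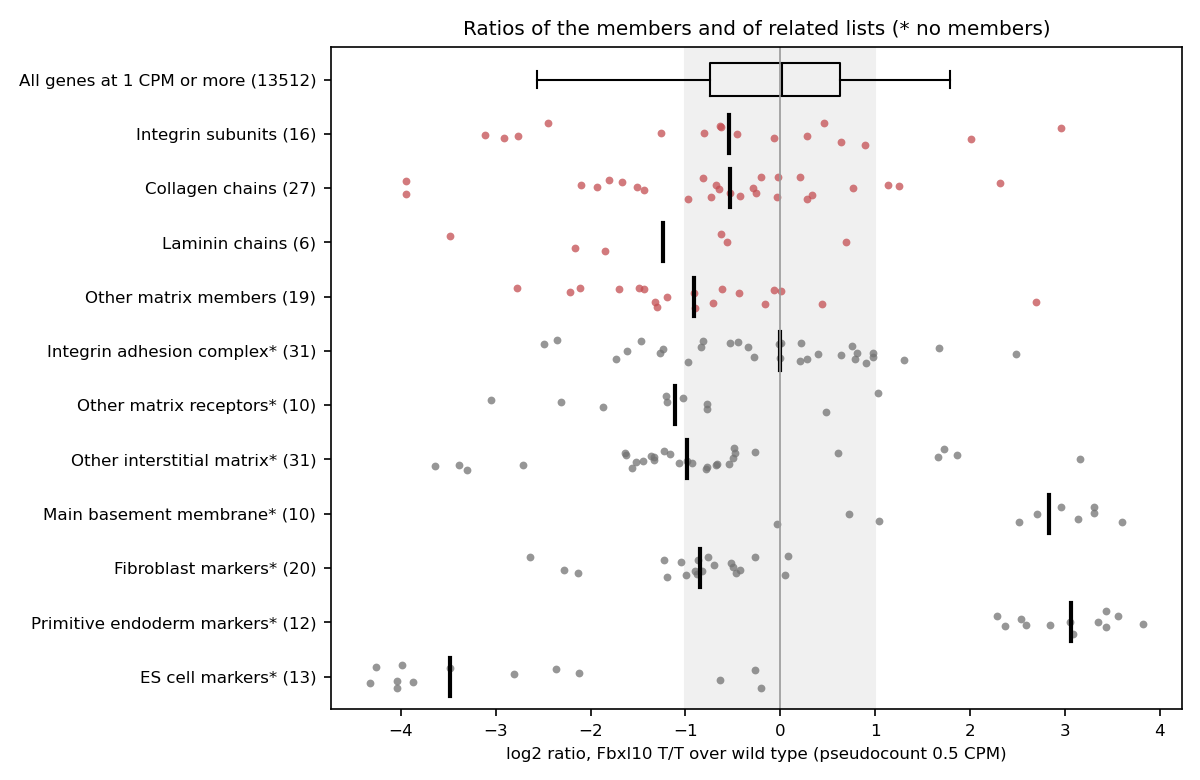
Log2 ratio of T/T over wild type, with a pseudocount of 0.5 CPM, for the members by kind (red) and for related lists that hold no members (grey); each point is a gene at 1 CPM or more, the black bar is the median, the number of genes is in brackets, and the grey band spans 2-fold either way. The box shows the quartiles of all genes, with whiskers to the 5th and 95th percentile; the medians of the 4 member kinds lie between -1.24 and -0.53, and that of the main basement membrane genes at 2.83.

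Several members are neighbours on the genome, and neighbours did not always move alike. On chromosome 10, 4 members lie within 969.9 kb: Col6a2, Col6a1, Col18a1 and Itgb2, in this order along mm9. Col18a1 was 15.5-fold lower and Itgb2, 363.8 kb further on, 15.9-fold higher. The 3 listed genes between them were Pofut2, Adarb1 and 1810008A18Rik, of which Pofut2, a protein fucosyltransferase gene, was 2.32-fold higher at 94.7 and 219.2 CPM. On the other side of Col18a1, Slc19a1 was at 20.3 and 28.5 CPM and Pcbp3 was 13.3-fold lower at 17.3 and 1.30 CPM. Of the 9 listed genes of this stretch 2 were lower, 2 higher and 5 in between. Over all genes at 1 CPM or more the shares were 20.6%, 14.8% and 64.7%, and with 9 genes no departure from them was tested. The adjacent chains Col6a1 and Col6a2, 85.5 kb apart, and Col3a1 and Col5a2, 25.3 kb apart on chromosome 1, had like ratios: 0.62 and 0.56 for type VI, and 0.83 and 0.98 for types III and V.

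**Figure D5:**
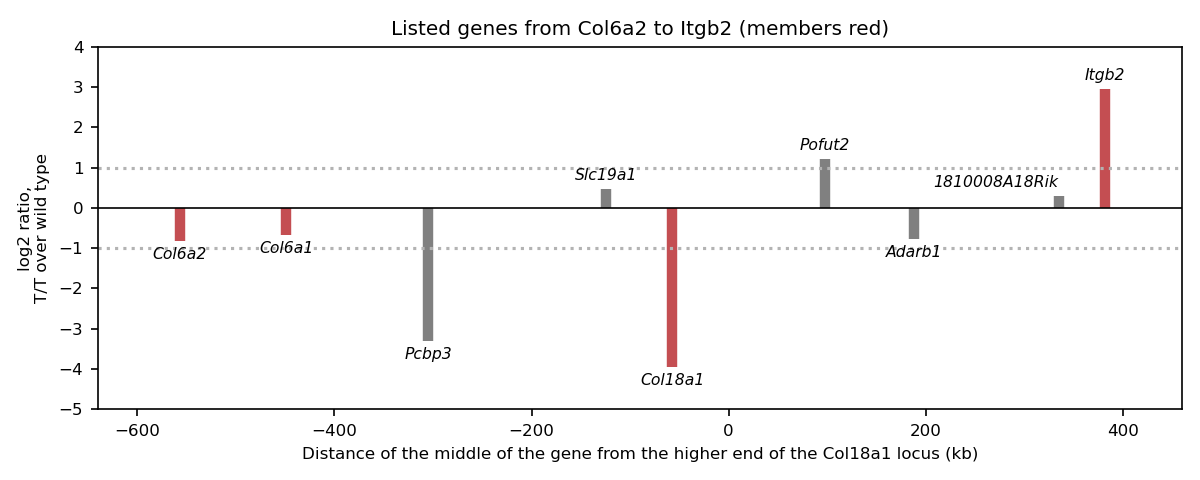
Log2 ratio of T/T over wild type (pseudocount 0.5 CPM) for the 9 listed genes from Col6a2 to Itgb2, placed by the distance in kb of the middle of each gene from the higher end of the Col18a1 locus; members are red and dotted lines mark 2-fold. Col18a1 and Pcbp3 reach below the lower line, and Itgb2 and Pofut2 above the upper one.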

How the data were processed

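RNA-seq of 2 mouse ES cell libraries, wild type and Fbxl10 T/T, was analysed at the level of genes. The submitters' processing notes name mm9 as the build and list HTSeq 0.5.3p9, edgeR and TopHat 1.4.1 without saying what each did. The annotation used and whether counting took strand into account are likewise not stated there. The deposited signal is a normalised CPM whose columns sum to 887645 and 1098136. All values (100%) were whole multiples of 0.0419 CPM in wild type or 0.0405 CPM in Fbxl10 T/T, within 0.01 reads, so reads were recovered, and 3 reads correspond to 0.126 and 0.122 CPM. The deposited log2 ratios (wild type over T/T) differed from the recomputed ones by at most 0.0028 over 9311 genes that both libraries held at 5 CPM or above. The table's 24706 rows held 13620 genes once 11086 repeats were dropped. Members and lists were chosen with earlier results of these data known.

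Named genes are any members (in full where they reach 5 CPM and pass 2-fold or lie among the 2 highest or lowest ratios of their class), the targeted gene, the excluded partners, and up to 3 genes at either end of each list; other genes named were chosen after their values were seen, among them core adhesion genes, markers and neighbours. Folds are CPM ratios without a pseudocount. Intervals are exact (Clopper-Pearson) 95% binomial and cover counting error only, since PCR copies are not independent molecules. As an added comparison of the libraries, not the genotypes, an exact two-sided binomial test of the recovered reads and a Benjamini-Hochberg threshold of 0.05 gave 5580 lower and 5792 higher genes. The steps were tested on simulated data. Other pseudocounts, minimums, scalings and fold thresholds were tried. Computations ran in Python 3.11.15 with scipy 1.17.1, numpy 2.4.6 and pandas 2.3.3, and plots were drawn with matplotlib 3.10.9. The values of 1 member are not reported here.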

Additional observations from a re-analysis of the deposited data

How the results depend on the processing

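No paired analysis was possible because each genotype has a single library, so none could be left out either. At a threshold of 1.5-fold 11 members were higher and 38 lower, beside 3582 and 3876 of all 13512 genes at 1 CPM or more. At 4-fold 4 members were higher and 12 lower, beside 519 and 1229 of these genes. Setting both libraries to equal column sums moved the members' median log2 ratio from -0.63 to -0.93, by construction of that scaling. Under the other planned settings (pseudocounts of 0.1 and 1 CPM, no minimum or 5 CPM, common median or upper quartile, the added binomial test, and leaving out the 2 non-subunits), the median stayed negative and the counts stayed within 1.5 times, at 5 to 7 higher and 22 to 30 lower. Over all genes the counts under these other settings ran from 1440 to 2115 higher and from 1737 to 3254 lower. The number of genes counted changes with the minimum. Depth limits Eln, Col17a1, Itgb2 and Itgb6 most, with 10 reads or fewer in 1 library.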

Other observations

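Genes for 2 further collagen chains stand in the table without a symbol that the choice of members used. Col26a1, listed under its older symbol Emid2, was at 3.01 CPM in the wild-type and 0.446 CPM in the T/T library, 6.77-fold lower (95% counting interval 3.57 to 14.2). Col22a1, a fibril-associated collagen gene listed without a symbol and named through GENCODE M21, had 57 and 3 reads, a ratio of 0.051 with a counting interval from 0.010 to 0.156. Both genes had fewer than 28 T/T reads and are in the table through their wild-type reads alone, so the listing favoured their direction.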
